A study of Homo sapiens with 6 samples.

Results

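Messenger RNA of the EGF receptor family, its ligands and the inhibitor ERRFI1 was compared between M5 and SW480 cells on oligonucleotide arrays that report 1 signal per probe set, a group of short probes for 1 transcript. SW480 is an established human colorectal cancer cell line. M5 is a subpopulation obtained from SW480 by selection in a living animal and has a raised capacity to form liver metastases. The comparison asks how transcripts differ between the selected cells and the line they came from. Each population had 3 arrays, which the labels call biological replicates, and both were grown in the same serum-containing medium with antibiotics and no further agent. The animal species, whether M5 is a clone or a mixed population, and how the replicate cultures were separated are unstated in the labels, so p-values measure only the spread between these arrays.

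The set holds 10 genes: the receptors EGFR, ERBB2 and ERBB3, the ligands AREG, EREG, TGFA, HBEGF, BTC and EPGN, and the inhibitor ERRFI1. Members were taken as probe sets whose only gene symbol in the platform annotation is 1 of these names, which gave 29 of the 54613 probe sets that are not controls. These belong to 8 genes: 17 probe sets to the 3 receptors, 11 to the ligands EREG, TGFA, HBEGF and BTC, and 1 to ERRFI1. AREG and EPGN had no probe set named for them alone in that annotation and have no value here.

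Receptors of this family are tyrosine kinases of the cell surface that form pairs once a ligand binds, and the active pair feeds the Ras-MAPK and PI3K-AKT relays. ERBB2 has no known ligand of its own and acts as a partner, while ERBB3 has a weak kinase and signals through its partners. The ligands are made as membrane-anchored precursors and are released by metalloproteases, so a transcript level is not a level of free ligand. EGFR is a target of antibody treatment in colorectal cancer, and EREG and AREG transcripts have been studied there as markers of the response.

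The ligand genes EPGN, EREG, AREG and BTC lie in this order on chromosome 4 between 74308470 and 74794523 in RefSeq's GRCh38.p14, with no other protein-coding gene between them. The other members lie on chromosomes 7 (EGFR), 17 (ERBB2), 12 (ERBB3), 2 (TGFA), 5 (HBEGF) and 1 (ERRFI1). The gene starts of 9 of the 10 members, all but ERBB3, were matched in RefSeq. Letters were searched on both strands in the 250 bases before each start, the outermost start where a gene has several. The exact TATA box letters TATAAA were present before EPGN, EREG and AREG and before no other matched member. They were found before 10.7% of 35116 starts. Their first base lay 29, 32 and 29 bases before the starts of EPGN, EREG and AREG. Variants of these letters were not searched. The bases before ERRFI1 hold tatatata, and those before BTC hold gataaata. A GC box, GGGCGG, was present 5 times before HBEGF, 3 times before TGFA, 2 times before EGFR and once each before AREG and ERRFI1, and before 42.6% of all starts. The AP-1 motif, TGANTCA, was found once, before ERBB2, and before 6.57% of all starts. Shares over all starts include further starts of a gene, which were left out for the members. A further EGFR start had 2 TATAAA and 2 AP-1 motifs, and a further TGFA start had neither. GC content of the 250 bases was 73.6% for EGFR and 38.0% for EPGN, against a median of 58.0% over all starts. The last 100 bases before the start, 5′ to 3′, are shown for the 4 neighbouring ligand genes and EGFR because they show how the core promoters of family members differ. Capitals mark the TATA and GC boxes. The stretches are chr4:74308370-74308469, chr4:74365045-74365144 and chr4:74445036-74445135 on the plus strand, chr4:74794524-74794623 on the minus strand and chr7:55018917-55019016 on the plus strand.
EPGN: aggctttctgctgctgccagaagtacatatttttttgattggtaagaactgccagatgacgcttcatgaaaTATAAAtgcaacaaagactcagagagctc
EREG: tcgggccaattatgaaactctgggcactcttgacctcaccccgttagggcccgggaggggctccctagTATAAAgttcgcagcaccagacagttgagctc
AREG: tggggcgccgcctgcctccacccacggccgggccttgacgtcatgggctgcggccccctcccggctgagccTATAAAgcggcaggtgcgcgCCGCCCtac
BTC: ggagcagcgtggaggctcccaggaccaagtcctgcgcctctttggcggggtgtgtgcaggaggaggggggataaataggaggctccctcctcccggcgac
EGFR: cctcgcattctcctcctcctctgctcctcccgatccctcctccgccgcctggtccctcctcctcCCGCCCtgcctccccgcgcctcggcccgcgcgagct

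Signals below are on the deposited linear scale after quantile normalisation, which gives every array the same distribution. This was needed because the 2% trimmed mean signal of the arrays was 27.0, 65.3 and 67.1 for M5 replicates 1, 2 and 3 and 20.9, 53.4 and 86.4 for SW480 replicates 1, 2 and 3. M5 replicate 1 and SW480 replicate 1 are called the dimmer arrays. M5 replicates 2 and 3 correlated at r = 0.995 over 3587 probe sets with a signal of at least 100 on every array, against at most 0.965 for any other pair, so they count as 1 sample in each mean and SD (n = 2 for M5). The highest of those other pairs was M5 replicate 1 with SW480 replicate 1. The limma ratios, SEs, intervals and p-values below took M5 replicates 2 and 3 as 2 arrays unless stated. Their intervals may therefore be too narrow. An 18S ribosomal RNA control was 1783, 190 and 281 on M5 replicates 1, 2 and 3 and 1913, 1876 and 90.0 on SW480 replicates 1, 2 and 3. Colorectal epithelial markers differed widely in signal. EPCAM read 2923, 2408 and 2240 in M5 and 2559, 2176 and 2446 in SW480, and KRT8, KRT18, KRT19 and CDH1 read at least 262 on every array. KRT20, VIL1 and CEACAM5 were dimmer, with at most 57.5, 17.0 and 14.4 on any array. Of the 10 epithelial markers, CDH17 and CDX2 fell below the filter on dim signals. The hepatocyte markers ALB and APOB also fell below it, and the sum over 6 hepatocyte markers was 86.3 to 549 in M5 and 74.2 to 281 in SW480. The hepatocyte marker TTR read 196, 73.1 and 5.68 on M5 replicates 1, 2 and 3, against 5.17, 1.67 and 1.43 on SW480 replicates 1, 2 and 3 (log2 fold change 3.52, unadjusted p = 0.00399, adjusted p = 0.307 in limma). FGB had a log2 fold change of 2.70 (unadjusted p = 0.0139, adjusted p = 0.39 in limma), APOA1 0.02 and SERPINA1 -0.47, and their part in the values below was not tested. In a bulk extract, fewer cells with a transcript and less of it per cell cannot be told apart.

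No receptor, ligand or inhibitor gene passed the test between M5 and SW480. Of the 29 probe sets, 22 passed the filter that removed the dimmest 40% of all probe sets. In limma with Benjamini-Hochberg adjustment over all 32768 kept probe sets, 0 of the 22 were higher and 0 were lower in M5 at the threshold of 0.05, with adjusted p between 0.435 and 0.98. Over all kept probe sets, 0.0397% were higher and 0.0336% lower. At an unadjusted p under 0.05, 1 of the 22 was lower in limma, an EREG probe set, against 3360 of the 32768. Of the 22, 11 had a log2 fold change above 0 and 11 below, with a median of 0.02 beside a median of -0.01 over all kept probe sets. Every M5 array lay above every SW480 array for 1 of the 22 and below for 3, against 7.23% and 7.89% of all kept probe sets. The median standard error (SE) of the 22 was 0.43 on the log2 scale.

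**Figure D1:**
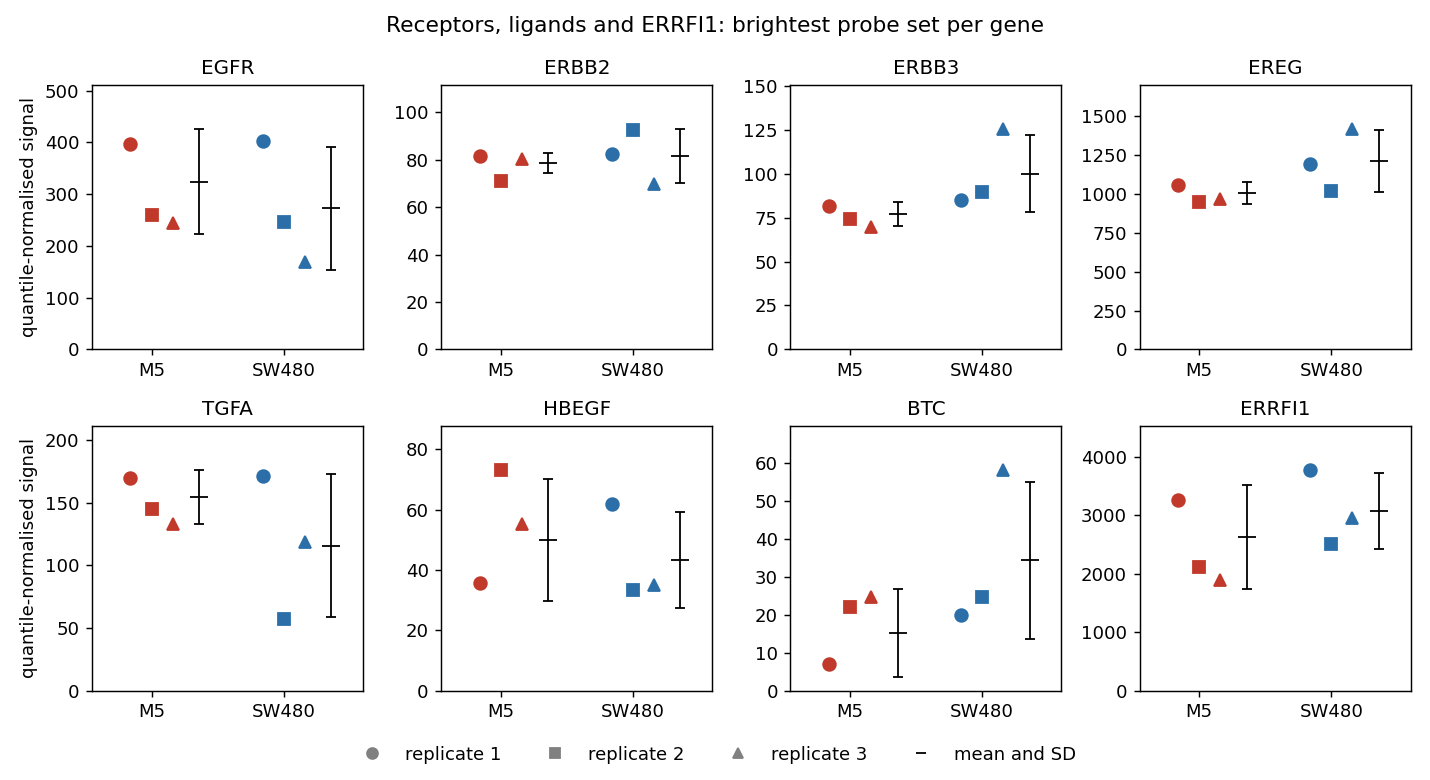
Quantile-normalised signal (vertical axis, linear, from 0) of the brightest probe set of each measured member on every array, M5 left and SW480 right. Symbols are replicates, and the black mark is the mean with SD (n = 2 for M5 with replicates 2 and 3 averaged, n = 3 for SW480). The populations overlap for 7 of the 8 genes; for ERBB3 all M5 arrays lie below all SW480 arrays.

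EGFR, a receptor for the ligands of this set, did not separate the populations on its brightest probe set, 201983_s_at. The signal was 396, 260 and 245 on M5 replicates 1, 2 and 3, against 403, 245 and 169 on SW480 replicates 1, 2 and 3. The highest value of each population came from its dimmer array, and the groups overlapped. The means were 324 ± 102 (SD, n = 2) in M5 and 272 ± 119 (SD, n = 3) in SW480. The M5 to SW480 ratio was 1.15 with a 95% confidence interval of 0.71 to 1.84 (limma adjusted p = 0.869). A second bright probe set, 224999_at, read 265, 250 and 254 in M5 and 299, 224 and 184 in SW480, a log2 fold change of 0.15 (SE 0.23).

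Of the 4 less bright EGFR probe sets, 3 had larger log2 fold changes and 1565484_x_at a smaller one, 0.11 (SE 0.88). Probe set 201984_s_at read 70.7, 111 and 97.2 on M5 replicates 1, 2 and 3, against 88.5, 46.9 and 49.2 on SW480 replicates 1, 2 and 3. M5 replicates 2 and 3 were thus above all SW480 arrays and M5 replicate 1 was below SW480 replicate 1. In limma it differed by 0.62 on the log2 scale (SE 0.32, adjusted p = 0.551). On the 4 brighter arrays alone it was 1.11 (SE 0.23, limma adjusted p = 0.0231), where the close pair of M5 arrays entered as 2 samples, while the dimmer arrays differed by -0.32 in the other direction. That fit called 3.64% of all probe sets higher and 4.21% lower in M5, and this EGFR probe set was the only member probe set among them. With that pair averaged to 1 M5 sample, assumed to vary like the 2 SW480 arrays, the same fold change had an adjusted p of 0.193 in limma. It also passed when limma weighted the arrays, with 0.93 on the log2 scale and an adjusted p of 0.0484. Across all settings tried, its adjusted p ran from 0.0231 to 1.

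For 211551_at, every M5 array (26.6, 17.4 and 17.4) exceeded every SW480 array (16.5, 12.3 and 13.3), with a log2 fold change of 0.48 (SE 0.41). The x_at probe set 211607_x_at, of a type the maker marks as open to cross-hybridisation, had 7.15, 22.8 and 26.2 in M5 and 3.07, 4.38 and 11 in SW480. Its log2 fold change was 1.35 (SE 0.63, limma adjusted p = 0.501). The 6 kept EGFR probe sets all had a log2 fold change above 0, from 0.11 to 1.35, and none passed. They share a gene and the same 6 arrays and are not independent. The other 3 of its 9 probe sets were under the filter, with signals of at most 17.5 on any array.

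ERBB2, the partner receptor without a ligand of its own, did not separate the populations. Its brightest probe set read 81.5, 71.1 and 80.3 on M5 replicates 1, 2 and 3, against 82.3, 92.5 and 69.8 on SW480 replicates 1, 2 and 3. The means were 78.6 ± 4.1 (SD, n = 2) in M5 and 81.6 ± 11.4 (SD, n = 3) in SW480. The ratio was 0.96 with a 95% confidence interval of 0.65 to 1.42 (limma adjusted p = 0.959), which leaves out a difference of 2-fold in either direction. The intervals of the brightest EGFR, ERBB3, EREG and ERRFI1 probe sets left it out too, with M5 replicates 2 and 3 taken as 2 arrays. With that pair averaged, the SE on the log2 scale rose from 0.31 to 0.37 for EGFR and from 0.27 to 0.33 for ERBB3. Whether the wider intervals leave out 2-fold was not tested. Dimmer probe sets of these genes did not all leave it out. On the log2 scale EGFR 201984_s_at reached 1.33, ERBB3 215638_at 2.58 and EREG 1569583_at -2.14. The other kept ERBB2 probe set had signals of at most 16 on any array. Its log2 fold change had an interval of -2.06 to 1.13, which does not leave out 2-fold. The third was under the filter.

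ERBB3, which signals through its partners, had lower signals on every M5 array than on any SW480 array for its 2 brightest probe sets, and neither passed the test. The brightest read 81.9, 74.4 and 69.7 on M5 replicates 1, 2 and 3, against 85.1, 89.7 and 125 on SW480 replicates 1, 2 and 3. The next, 202454_s_at, read 35.1, 34.6 and 27.1 in M5 and 41.5, 47.8 and 52.6 in SW480. SW480 replicate 3 was the highest array for both. Their log2 fold changes were -0.38 (SE 0.27) and -0.53 (SE 0.31), with limma adjusted p of 0.658 and 0.595. The dimmer arrays differed by only -0.05 and -0.23 and the 4 brighter arrays by -0.55 and -0.68. The other 2 kept ERBB3 probe sets, with signals of at most 22.8 on any array, had log2 fold changes of 0.25 and 1.05, so the gene's probe sets disagreed in direction. The fifth was under the filter.

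EREG, which encodes epiregulin, a ligand of EGFR and of ERBB4, had a bright signal, at percentile 98.3 of all probe sets by mean. Its brightest probe set, 205767_at, read 1059, 947 and 970 on M5 replicates 1, 2 and 3, against 1196, 1019 and 1419 on SW480 replicates 1, 2 and 3. M5 replicate 1 lay above SW480 replicate 2, so the groups overlapped. The means were 1008 ± 71 (SD, n = 2) in M5 and 1211 ± 200 (SD, n = 3) in SW480. The ratio was 0.83 with a 95% confidence interval of 0.64 to 1.06 (limma adjusted p = 0.609).

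The dimmer EREG probe set, 1569583_at, differed more. It read 42.6, 10.8 and 29.6 on M5 replicates 1, 2 and 3, against 52.0, 61.9 and 54.4 on SW480 replicates 1, 2 and 3. All M5 arrays lay below all SW480 arrays, and M5 replicate 2 was the lowest. Its log2 fold change was -1.16 (SE 0.45, unadjusted p = 0.0248, limma adjusted p = 0.435). Without M5 replicate 2 it was -0.63 (SE 0.37), and with M5 replicates 2 and 3 averaged -0.96. The dimmer arrays differed by -0.28 and the 4 brighter arrays by -1.60. It passed only when limma weighted the arrays, with a log2 fold change of -1.49 and an adjusted p of 0.048 in a range of 0.048 to 1 over all settings. The EREG probe sets had the same sign with different sizes.

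TGFA, which encodes transforming growth factor alpha, a ligand of EGFR, read 170, 145 and 133 on M5 replicates 1, 2 and 3, against 171, 57.4 and 119 on SW480 replicates 1, 2 and 3. SW480 replicate 2 was the low value, and the highest array of each population was its dimmer one. The ratio was 1.4 with a 95% confidence interval of 0.81 to 2.41 (limma adjusted p = 0.681). The log2 fold change was 0.49 with all arrays, 0.055 without SW480 replicate 2 and 0.84 without SW480 replicate 1. The other TGFA probe sets had log2 fold changes of -0.75 and 0.18 with SEs of 0.78 and 0.83. On 211258_s_at the dimmer arrays read 1.97 in M5 and 47.7 in SW480, while the 4 brighter arrays read 17.5 and 24.7 in M5 and 8.25 and 16.4 in SW480.

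HBEGF, the gene of a heparin-binding ligand of EGFR and ERBB4, differed in opposite directions on the brighter and the dimmer arrays. It read 35.5, 73.0 and 55.2 on M5 replicates 1, 2 and 3, against 61.8, 33.2 and 34.9 on SW480 replicates 1, 2 and 3. M5 was higher on the 4 brighter arrays by 0.87 on the log2 scale and lower on the dimmer ones, with a difference of -0.77. Over all arrays the ratio was 1.25 with a 95% confidence interval of 0.71 to 2.20 (limma adjusted p = 0.812). Leaving out 1 array gave log2 fold changes from 0.089 (without M5 replicate 2) to 0.61 (without SW480 replicate 1), against 0.32 with all arrays. A second kept probe set had a log2 fold change of -0.63 (SE 0.58), and 2 others were under the filter.

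BTC, which encodes betacellulin, a ligand of EGFR and ERBB4, had the lowest M5 to SW480 ratio among the brightest probe sets of the 8 measured genes with all arrays, but not without M5 replicate 1. Its brighter probe set read 7.02, 22.0 and 24.7 on M5 replicates 1, 2 and 3, against 20.1, 24.8 and 58.1 on SW480 replicates 1, 2 and 3. The low value was M5 replicate 1 and the high one SW480 replicate 3, and the other 4 arrays lay between 20.1 and 24.8. The means were 15.2 ± 11.5 (SD, n = 2) in M5 and 34.3 ± 20.7 (SD, n = 3) in SW480. The ratio was 0.54 with a 95% confidence interval of 0.24 to 1.23 (limma adjusted p = 0.61). The second BTC probe set read 0.583, 9.48 and 15.2 in M5 and 15.1, 12.4 and 16.6 in SW480, a log2 fold change of -1.11 (SE 0.72). Leaving out M5 replicate 1 moved the first value to -0.39, and leaving out SW480 replicate 3 to -0.43, against -0.89 with all arrays.

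ERRFI1, also called MIG6, binds the kinase domain of EGFR family receptors, inhibits them and is itself induced by their signalling. It stood at percentile 99.3 of all probe sets by mean signal, with 3256, 2120 and 1887 on M5 replicates 1, 2 and 3, against 3770, 2500 and 2947 on SW480 replicates 1, 2 and 3. M5 replicates 2 and 3 were below all SW480 arrays, and M5 replicate 1 was above SW480 replicates 2 and 3. The means were 2630 ± 886 (SD, n = 2) in M5 and 3072 ± 644 (SD, n = 3) in SW480. The ratio was 0.78 with a 95% confidence interval of 0.56 to 1.08 (limma adjusted p = 0.599). The lowest adjusted p of ERRFI1 under any setting was 0.0762, on the 4 brighter arrays, in a range up to 1.

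**Figure D2:**
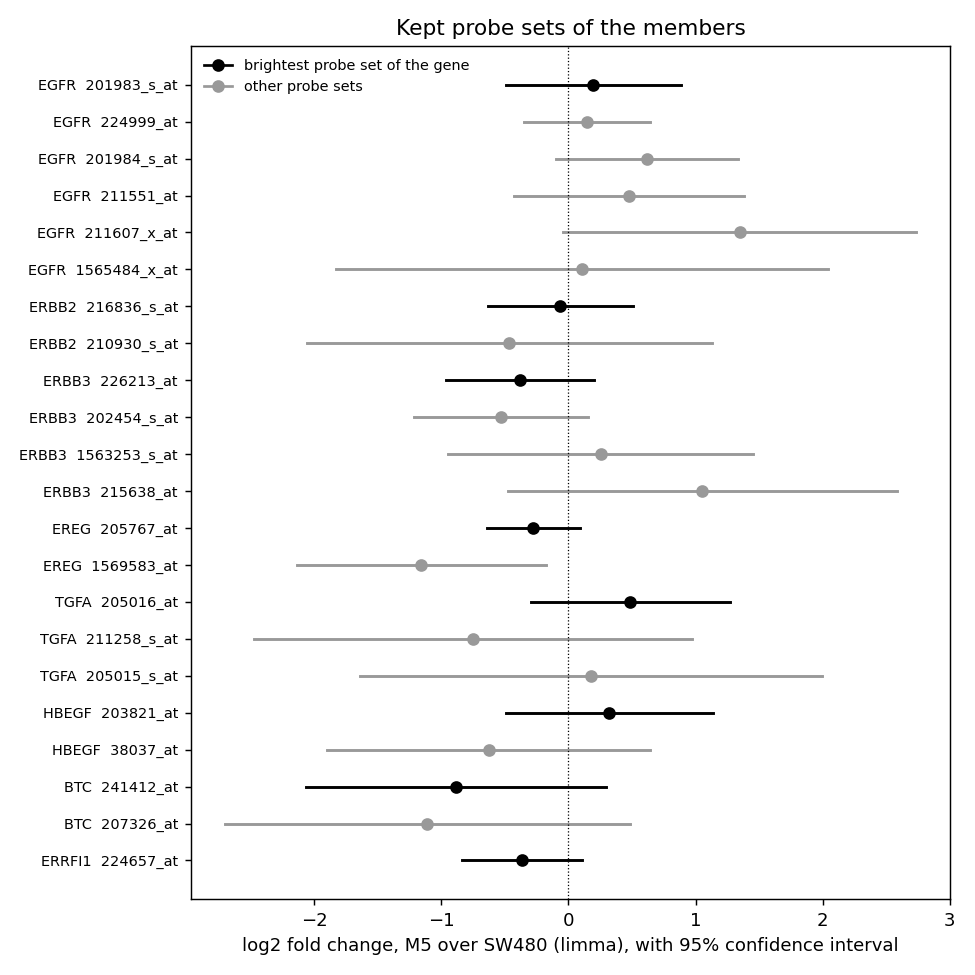
Log2 fold change of M5 over SW480 in limma (horizontal axis) with its 95% confidence interval for the 22 kept probe sets, grouped by gene. Black marks the brightest probe set of each gene and grey the others. All intervals but that of EREG 1569583_at include 0. The interval of ERBB2 216836_s_at, from -0.63 to 0.50, lies within 1 unit of 0. So do those of the brightest EGFR, ERBB3, EREG and ERRFI1 probe sets and of EGFR 224999_at.

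Array brightness moved with several of these values, and its part in them was not tested. The sign of the M5 minus SW480 difference was the same on the dimmer arrays and on the 4 brighter arrays for 12 of the 22 kept probe sets, beside 50.2% of all kept probe sets. Both kept ERBB2, EREG and BTC probe sets, the ERRFI1 probe set and ERBB3 226213_at and 202454_s_at were lower in M5 on both sets of arrays. EGFR 211551_at and 211607_x_at and ERBB3 215638_at were higher in M5 on both. For TGFA and HBEGF, all 5 kept probe sets were higher in M5 on the 4 brighter arrays and lower on the dimmer ones, there by -0.02 for the brightest TGFA probe set and by -0.77 to -3.75 for the others. Within the arrays of high 18S control signal (M5 replicate 1, SW480 replicates 1 and 2) the brightest EREG probe set differed by -0.06, and within the others by -0.57. For ERRFI1 these differences were 0.08 and -0.56, and for ERBB3 -0.09 and -0.79. They were 0.33 and 0.57 for EGFR, 0.76 and 0.22 for TGFA, and -1.46 and -1.26 for BTC. ERBB2 had -0.10 and 0.11, and HBEGF -0.34 and 0.83. Only 1 SW480 array, replicate 3, was in the group of low 18S signal.

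**Figure D3:**
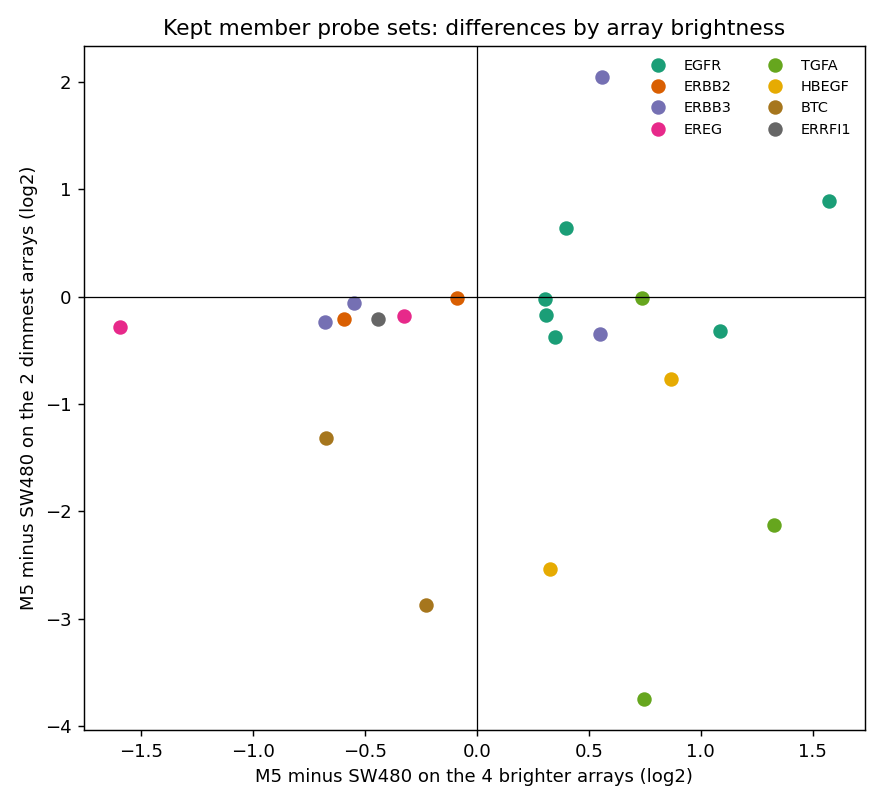
M5 minus SW480 on the log2 scale for the 22 kept member probe sets, on the 4 brighter arrays (horizontal axis) and on the dimmer pair of arrays (vertical axis), coloured by gene. Points in the lower right quadrant, among them all of TGFA and HBEGF, were higher in M5 on the brighter arrays and lower on the dimmer ones.

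Of 60 further genes of the pathway, 50 were measured above the filter, and 0 were higher and 0 lower in M5 in limma (lowest adjusted p 0.315, against 8 higher and 6 lower among 14243 genes by the same fit). Their median log2 fold change was -0.02 beside -0.01 over all genes. At an unadjusted p under 0.05, 5 of the 50 and 1644 of the 14243 genes passed. Every M5 array lay above every SW480 array for 1 of the 50 and below for 3. Over all 14243 genes these counts were 1103 and 1191. Among the other receptors and ligands, 3 of 6 were above the filter. NRG1, a ligand of ERBB3 and ERBB4, had a log2 fold change of 0.43 (SE 0.49), with signals of at most 19.1 on any array. The receptor ERBB4 had 0.24 (SE 0.83), with signals of at most 15.15. The 8 sheddases and carriers had a median of 0.16. The largest difference there was 0.62 (SE 0.35) for RHBDF1, a rhomboid-like protein that carries the ligand-cleaving protease ADAM17 to the surface. The next was 0.40 (SE 0.63) for the rhomboid protease RHBDL2, with signals of at most 10.6 on any array. ADAM17 itself had -0.10 (SE 0.21) and ADAM10, another protease that sheds EGF ligands, -0.23 (SE 0.21).

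The 13 adaptors had a median of -0.03. SOS1, which loads Ras proteins with GTP, had the largest difference of the whole list, with signals of 67.5, 27.3 and 27.7 on M5 replicates 1, 2 and 3, against 73.5, 125 and 101 on SW480 replicates 1, 2 and 3. All M5 arrays were below all SW480 arrays, with a difference of -1.35 on the log2 scale (SE 0.38, adjusted p = 0.315 in limma), but the dimmer arrays differed by only -0.12. The scaffold GAB2 had 0.86 (SE 0.68). The adaptor GRB2, which joins the receptors to SOS1, had -0.29 (SE 0.20).

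Among the 14 genes of receptor removal and inhibition, the median was -0.09. LRIG1, a membrane protein that promotes loss of EGFR family receptors, read 19.0, 12.0 and 20.1 on M5 replicates 1, 2 and 3, against 66.4, 29.2 and 30.3 on SW480 replicates 1, 2 and 3. The groups did not overlap, the log2 fold change was -1.15 (SE 0.42, limma adjusted p = 0.412), and both the dimmer arrays (-1.72) and the brighter ones (-0.87) differed the same way. The ubiquitin ligase CBLB had -0.80 (SE 0.41). PTPN1, a phosphatase that acts on EGFR, was the only gene of the 50 with every M5 array (69.3, 117 and 102) above every SW480 array (51.1, 45.9 and 68.3), a difference of 0.77 on the log2 scale (SE 0.30, adjusted p = 0.438 in limma). The choice of PTPN1 followed its values.

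In the 12 measured genes of the kinase relays the median was -0.01. PIK3CB, a catalytic subunit of PI3K, read 82.9, 111 and 111 in M5 and 134, 175 and 196 in SW480, with no overlap. Its log2 fold change was -0.72 (SE 0.25, limma adjusted p = 0.396), with -0.68 on the dimmer arrays and -0.74 on the brighter ones. The kinase MAPK3 had 0.60 (SE 0.33). HRAS, a Ras GTPase likewise chosen by its values, had 0.59 (SE 0.27, limma adjusted p = 0.486) and completes, with SOS1, LRIG1, PTPN1 and PIK3CB, the 5 genes under an unadjusted p of 0.05.

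The protein-coding neighbours of the ligand genes on chromosome 4, 10 on each side, include a cluster of chemokine genes. Of these 20 neighbours 12 were above the filter, and 0 were higher and 0 lower in M5 in limma (lowest adjusted p 0.595, none under an unadjusted p of 0.05). Their log2 fold changes were below 0 for 10 and above 0 for 2, with a median of -0.32 beside -0.01 over all genes. CXCL8, which encodes the chemokine interleukin-8, read 37.2, 126 and 122 on M5 replicates 1, 2 and 3, against 193, 27.5 and 681 on SW480 replicates 1, 2 and 3. The 4 chemokine genes above the filter, CXCL8, CXCL1, CXCL2 and CXCL3, were all highest on SW480 replicate 3. So were the brightest EREG and BTC probe sets, but also that of ERBB3, which lies on another chromosome. Of the other neighbours, MTHFD2L, RCHY1 and THAP6 were highest there, and PARM1, CDKL2, G3BP2, NAAA and SDAD1 were not. The share of all genes highest on that array was not counted. The other neighbours with the largest differences were THAP6 at -0.79 (SE 0.46) and CDKL2 at -0.55 (SE 0.78).

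**Figure D4:**
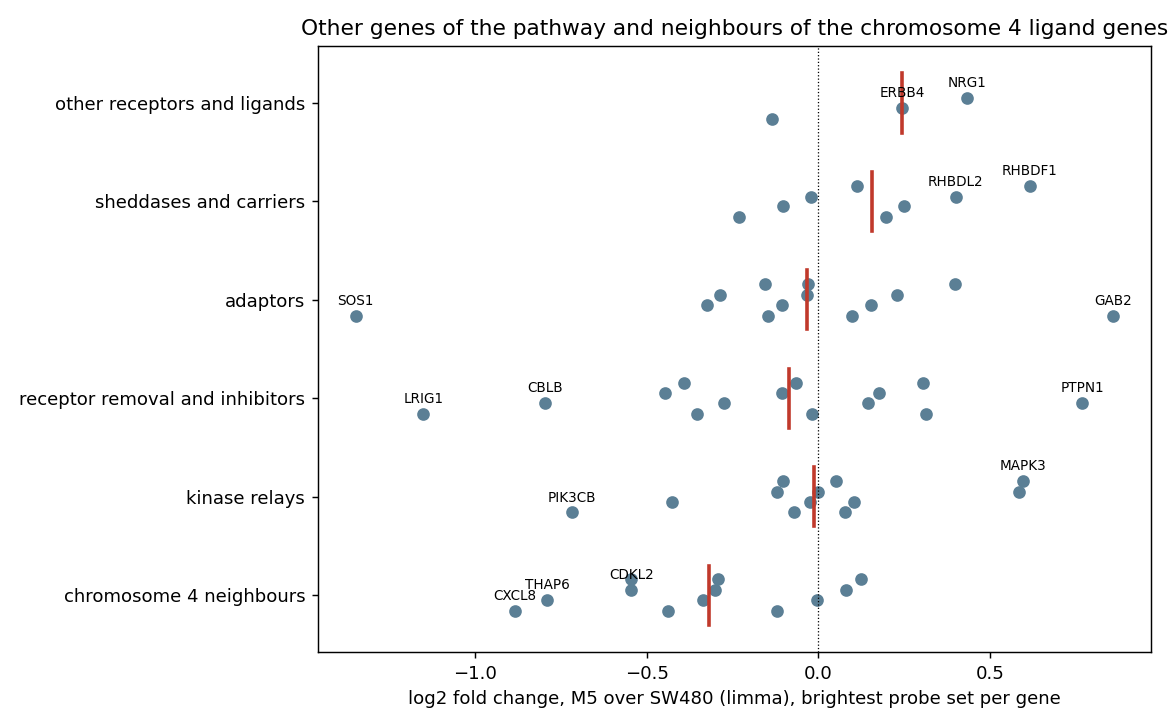
Log2 fold change of M5 over SW480 (horizontal axis, limma, brightest kept probe set per gene) for 5 groups of other pathway genes and for the chromosome 4 neighbours. Each point is a gene, the red line is the group's median, and named genes are labelled. No point passed the threshold, and the medians lie between -0.32 and 0.24.

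The genes whose signals followed those of EGFR most closely over the 6 arrays were CD9, a tetraspanin gene, DNAJC21, METTL26, CDC42 and DCTN1, a dynactin subunit gene. The root mean square difference from EGFR, after each gene's mean was subtracted, was 0.087 to 0.117 on the log2 scale among 8970 genes compared. Their log2 fold changes between M5 and SW480 were 0.02 to 0.24, beside 0.20 for EGFR. These genes were chosen for their likeness over the same 6 arrays, so near fold changes follow from the choice. How often such close matches arise by chance was not tested.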

How the data were processed

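M5 (3 arrays) was compared with SW480 (3 arrays). The authors deposited linear intensities, 1 per probe set and array, made with GCOS 1.4, per the submitters' processing notes. How GCOS was set, whether it scaled the arrays and which genome build applied was not given in the sources used here. Detection calls were not used here, so no signal could be placed above or below background. Precision is limited by the number of arrays.

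After 62 control probe sets were left out, arrays were quantile normalised and analysed as log2(signal + 1.7). The added 1.7 equals the 20th percentile over the whole table and makes fold changes of low signals too small. A filter on the mean over the 6 arrays removed the dimmest 40% of probe sets. The test was limma 3.58.1 in R 4.3.3 (lmFit and eBayes with an intensity trend, all 6 arrays, two-sided, Benjamini-Hochberg adjustment over 32768 probe sets, threshold 0.05), tested on simulated data. The brightest kept probe set stood for its gene. Of the 60 pathway genes, 53 had a probe set with their symbol alone and the other 7 had none. A kept probe set was present for 50, and only these were analysed here. Members, lists, rules and alternatives were chosen with earlier results of these data known.

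All members were named. From each pathway group and the neighbours, genes past the threshold and the 2 (neighbours 3) largest differences were named, with the 5 genes nearest EGFR. Others were named for their role or after their values were seen. Marker lists were epithelial, fibroblast, leukocyte, endothelial and hepatocyte. Summed normalised signals in M5 and SW480 were 11349 to 12318 and 9118 to 13015 for epithelium, 185 to 250 and 241 to 374 for fibroblast (COL3A1 among them), 86.9 to 191 and 21.3 to 95.5 for leukocyte, and 15.0 to 28.6 and 12.9 to 31.3 for endothelium. Their part in any value was not tested. Arrays with equal replicate numbers 1, 2 and 3 had deviations from their group means that correlated at 0.11, 0.02 and 0.07, so the numbers were not taken to pair the arrays. Promoter bases and gene positions are RefSeq's, GRCh38.p14. Figures used matplotlib 3.10.9.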

Additional observations from a re-analysis of the deposited data

How the results depend on the processing

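Beside the reported fit, 20 settings were run, and for the 8 measured genes the mean over kept probe sets in place of the brightest. No representing probe set of a member passed the threshold under any of them. In the reported fit 13 probe sets were called higher and 11 lower, with 0 and 0 among the members. Array weights gave 845 and 1069, with 1 member probe set higher (EGFR) and 1 lower (EREG). Without the dimmer arrays the counts were 1194 and 1378, with 1 EGFR probe set higher and 0 member probe sets lower. Averaging M5 replicates 2 and 3 on top of that left 115 and 185, with a single M5 sample assumed to vary like the 2 SW480 arrays, and averaging them alone 1 and 4. The dim-array block gave 48 and 32, limma without its trend 0 and 1 (3360 probe sets had an unadjusted p under 0.05 with the trend), no scaling between arrays 6 lower and no filter 20 lower. With each array left out once, 1 to 165 probe sets were called higher and 3 to 212 lower, and 0 member probe sets in either direction. Why these counts differ was not tested. With the replicate block, 18 probe sets were lower and 0 were member probe sets. Arrays of equal replicate number had deviations that correlated at 0.11, 0.02 and 0.07, and not every array correlated best with its own number.

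Signs changed for these uncalled log2 fold changes. EGFR ranged from -0.10 (without SW480 replicate 3) to 0.53 when 1 array was left out, with -0.02 without M5 replicate 1. ERBB2 ranged from -0.17 to 0.032 (without SW480 replicate 2) when 1 array was left out, and had 0.0075 with the 18S block. As means over kept probe sets, ERBB3 had 0.098, TGFA -0.030 and HBEGF -0.15, while EGFR had 0.48, EREG -0.72 and ERBB2 -0.26 with their signs kept. EREG, BTC and ERRFI1 kept their sign under all settings run. The median over all probe sets was 0.06 with no scaling and -0.06 with median centring. Signals near the pseudocount of 1.7 set no firm fold.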
